A study of Mus musculus with 14 samples.

Results

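The 7 genes Pelo, Hbs1l, Gtpbp1, Gtpbp2, Abce1, Ltn1 and Nemf encode factors that free stalled ribosomes and dispose of the unfinished proteins they hold. They were picked by symbol, as 7 of the 23412 rows of the deposited gene count table. All 7 were found, and all 7 passed the filter on low counts in both assays of the study.

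Each library came from the cortex of a mouse with the genotype Rpl22flox/flox;CamKCre+, listed under the source name CAMKIIa-Ribotag mouse brain. Control mice carried no further listed allele, and knockout (KO) mice also carried Fmr1X-Y, the allele that makes them deficient in Fmr1, which encodes the RNA-binding protein FMRP. Rpl22 encodes a protein of the large ribosomal subunit, and both genotypes share its floxed allele and the CamK-driven Cre, a driver used for forebrain excitatory neurons. RNA-seq of total RNA depleted of ribosomal RNA was run on 8 mice, of which numbers 1, 3, 6 and 8 were control and 2, 4, 5 and 7 were KO. Ribosome profiling, which sequences the mRNA fragments (footprints) that ribosomes protect from nuclease, was run on 6 mice, of which 1, 3 and 9 were control and 2, 4 and 10 were KO. The protocols describe monosomes from whole lysates and mention no pull-down, so reads can come from every cell type of the tissue.

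Ribosomes stall on damaged, truncated or hard-to-read mRNAs. Pelota and its GTPase partner Hbs1l enter the empty decoding site of a stalled ribosome, and the ATPase Abce1 then splits the ribosome into its subunits. Nemf and the ubiquitin ligase Ltn1 act afterwards on the large subunit, where they tag the trapped chain for degradation. Gtpbp2 and its paralog Gtpbp1 are related GTPases, and loss of Gtpbp2 in mice that lack a neuronal arginine tRNA is known to cause ribosome stalling and neurodegeneration.

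Total counts ran from 8847547 to 11371851 per RNA library and from 4124065 to 6033030 per footprint library. Fmr1 RNA was at 71.3 to 89.9 CPM (counts scaled to 1000000 per library and adjusted by the trimmed mean method, TMM) in control and 18.1 to 23.4 in KO mice. Its footprints were at 111 to 115 CPM in control and 5.82 to 8.54 in KO mice, so both assays match the labelled genotypes. RNA libraries of KO mice 2, 4 and 7 lay close together, with a chi-square of 1.18 to 1.32 for each degree of freedom between pairs (1 is sampling noise), whereas control mouse 8 reached 11.8 against control mouse 3. Pairs of footprint libraries of the same genotype lay at 1.15 to 1.42. Summed RNA of 5 excitatory neuron markers was 2048 to 2328 CPM in control and 2631 to 2926 in KO mice, that of 4 oligodendrocyte markers 4089 to 4582 and 3492 to 3868, and that of 3 astrocyte markers 382 to 419 and 305 to 319. RNA of 4 hypothalamic neuropeptide genes summed to 31.3 to 61.3 CPM in control and 12.8 to 18.7 in KO mice. Of the 5 excitatory markers 2 were called in RNA, both higher, and the median log2 fold change was 0.15. Their footprint sums ran the other way, at 4380 to 4486 CPM in control and 4127 to 4253 in KO mice. By gene the footprints were mixed, with 2 markers called higher and 1 lower. Of the 5, 2 were positive and 3 negative in footprints, with a median log2 fold change of -0.03. Footprint sums of the hypothalamic genes were 89.2 to 97.5 and 32.0 to 34.6, and those of the astrocyte markers 480.3 to 502.9 and 435.3 to 460.0. Those of inhibitory neuron markers (1157 to 1207 and 1118 to 1152), endothelial markers (139.2 to 144.4 and 126.9 to 135.7) and choroid plexus markers (5.19 to 8.51 and 3.08 to 5.15) were also lower in KO mice. By gene, 2 of the 3 endothelial markers were positive in footprints (median log2 fold change 0.06, lowest -0.40). Of the 3 inhibitory markers 1 was positive and 2 were negative (median -0.01, lowest -0.18). Footprint sums of striatal markers were higher, at 62.8 to 68.1 and 75.2 to 79.7. RNA of the 3 choroid plexus markers summed to 275.2 CPM in control mouse 8 and 113.9 in KO mouse 5, against 4.18 to 16.0 in the other RNA libraries. Excitatory neuron markers of the labelled cortex were detected in all libraries, and the part of these marker differences in the values below was not tested.

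The amount of footprints relative to RNA set Pelo and Hbs1l apart from the rest of the 7 genes in both genotypes. Levels of different genes cannot be compared here without transcript lengths, but the ratio of a gene's footprint CPM to its RNA CPM leaves length out as far as both assays were counted over the same region. In control mice Pelo had a ratio of 2.62, higher than that of 97.2% of the 12145 genes tested in both assays. Hbs1l, which encodes the direct partner of Pelota, had a ratio of 0.435, at percentile 13.8. The other genes lay between them in the order Gtpbp2 (0.643), Abce1 (0.825), Nemf (0.902), Ltn1 (1.04) and Gtpbp1 (1.25), at percentiles 29.4 to 71.4.

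Over all pairs of a control footprint library and a control RNA library, the log2 ratio of Pelo ran from 1.12 to 1.62 and that of Hbs1l from -1.41 to -0.90. Neither range met that of any other of the 7 genes. Ranges of neighbours in the middle of the order did overlap: Gtpbp2 ran from -0.81 to -0.37, Abce1 from -0.43 to -0.18, Nemf from -0.44 to 0.20, Ltn1 from -0.18 to 0.40 and Gtpbp1 from 0.18 to 0.47. In KO mice the ratio was 2.32 for Pelo (percentile 96.4) and 0.450 for Hbs1l (percentile 15.4), again the highest and the lowest of the 7. Between them Nemf (1.07) and Ltn1 (0.935) changed places, against 0.902 and 1.04 in control mice.

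**Figure D1:**
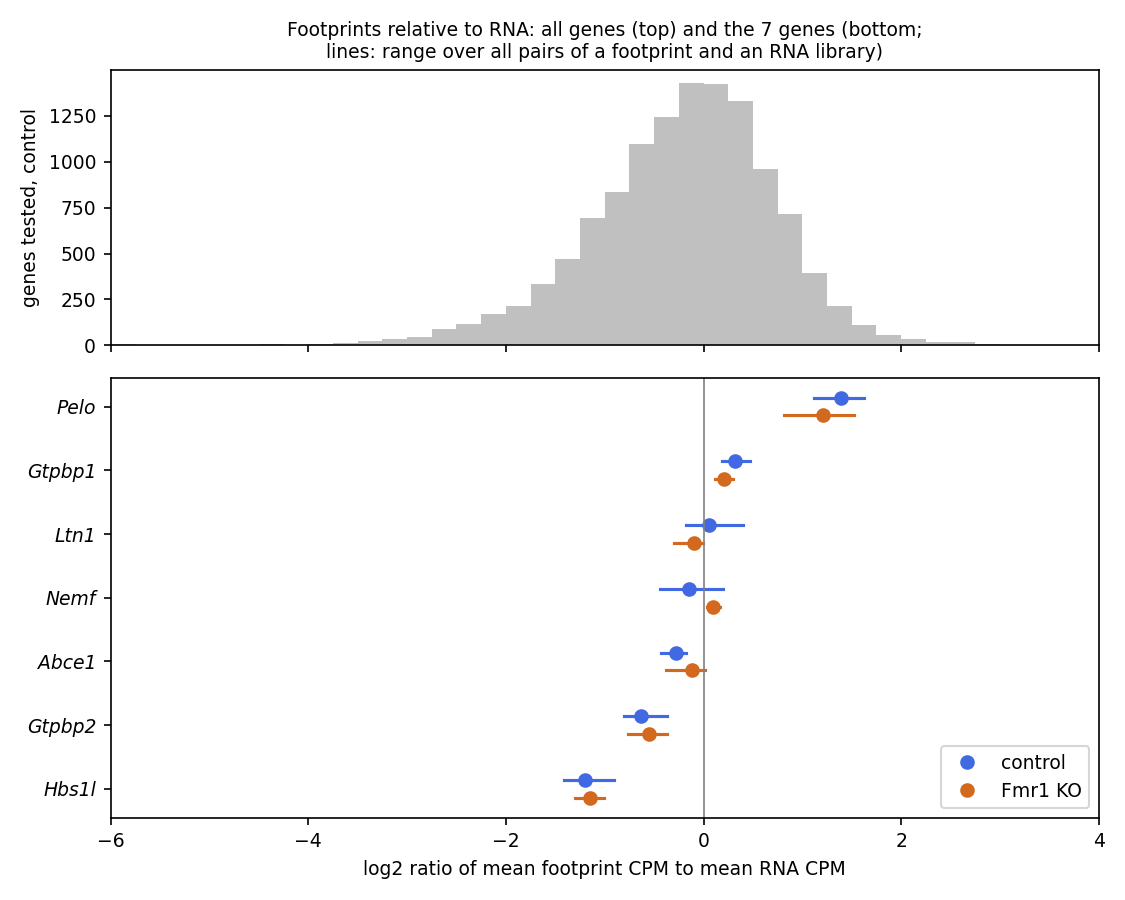
Log2 ratio of mean footprint CPM to mean RNA CPM: the upper panel counts all 12145 genes tested, in control mice, with genes beyond the axis in the end bars, and the lower panel shows each of the 7 genes (dot: ratio of group means, line: lowest to highest pair of libraries). Pelo lies to the right of the other 6 genes and Hbs1l to the left in both genotypes.

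The RNA columns used here held 52.9% to 56.7% of the counts in the paired columns whose header ends in exon, but a median of 93.5% for Nemf, 84.9% for Pelo, 76.6% for Ltn1, 76.1% for Hbs1l, 63.2% for Gtpbp1, 62.3% for Gtpbp2 and 57.5% for Abce1. With the exon columns Pelo remained the highest of the 7 (percentile 98.9) and Hbs1l the lowest (percentile 26.3), while Nemf moved from percentile 49.3 to 76.8.

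None of the 7 genes passed the test of a genotype difference in RNA, in footprints or in footprints relative to RNA at an adjusted p under 0.05 (edgeR quasi-likelihood test, Benjamini-Hochberg over all genes). DESeq2 also called 0 of 7 in each comparison. At an unadjusted p under 0.05 edgeR gave 0 of 7 in RNA, 1 of 7 (Nemf) in footprints and 0 of 7 in footprints relative to RNA, where 23.3%, 35.4% and 23.1% of all genes were. By adjusted p, 7.41% of all genes tested were called in RNA (3.53% higher and 3.88% lower in KO mice), 25.5% in footprints (11.9% and 13.6%) and 7.81% in footprints relative to RNA (3.4% and 4.41%). Of the calls, 46.7% in footprints and 43.5% relative to RNA were higher in KO mice, and on library sizes without TMM 66.3% and 67.6% were. Of the 7 genes, 4 had a positive and 3 a negative RNA difference, with a median log2 fold change of 0.03 against 0.00 over all genes. In footprints 3 were positive and 4 negative, with a median of -0.03 against 0.01.

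In these bulk libraries fewer cells of a type and less RNA per cell cannot be told apart. Across the 7 genes the 95% intervals of the KO to control fold reached from 0.806 to 1.23 in RNA, from 0.800 to 1.21 in footprints and from 0.700 to 1.44 in footprints relative to RNA. The groups did not overlap in RNA for 0 of the 7 genes, against 15.1% of all genes. In footprints they did not overlap for Ltn1 and Nemf, 28.6% of the 7 against 37.3% of all genes.

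**Figure D2:**
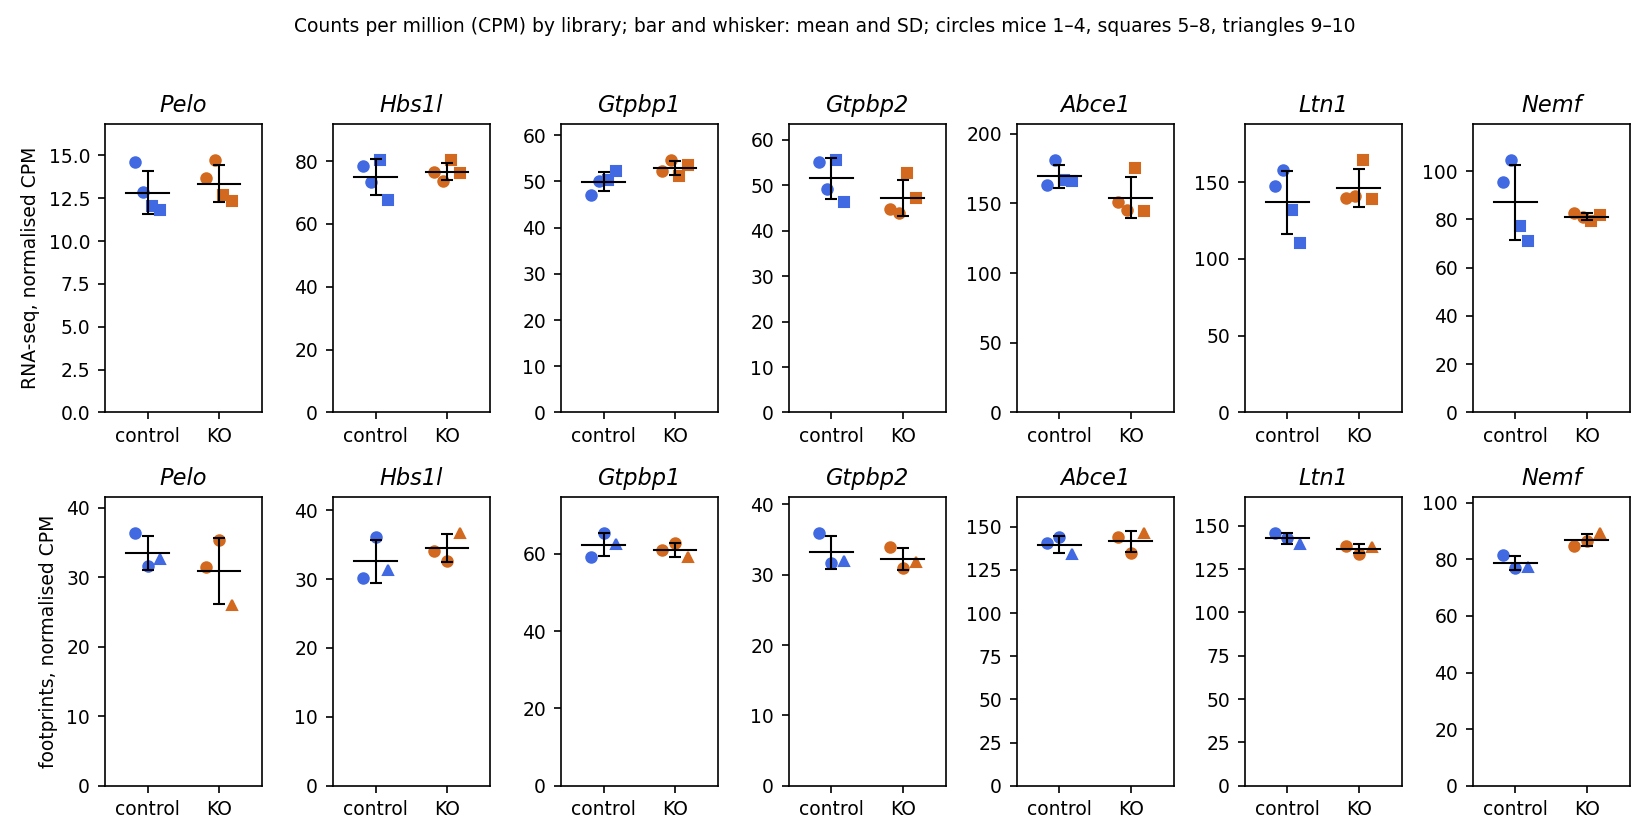
Normalised CPM of the 7 genes in each RNA-seq library (upper row, 4 control and 4 KO mice) and each footprint library (lower row, 3 and 3), with the mean and SD of each genotype. The genotypes overlap in every panel except the footprints of Ltn1, where KO mice are lower, and of Nemf, where they are higher.

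**Figure D3:**
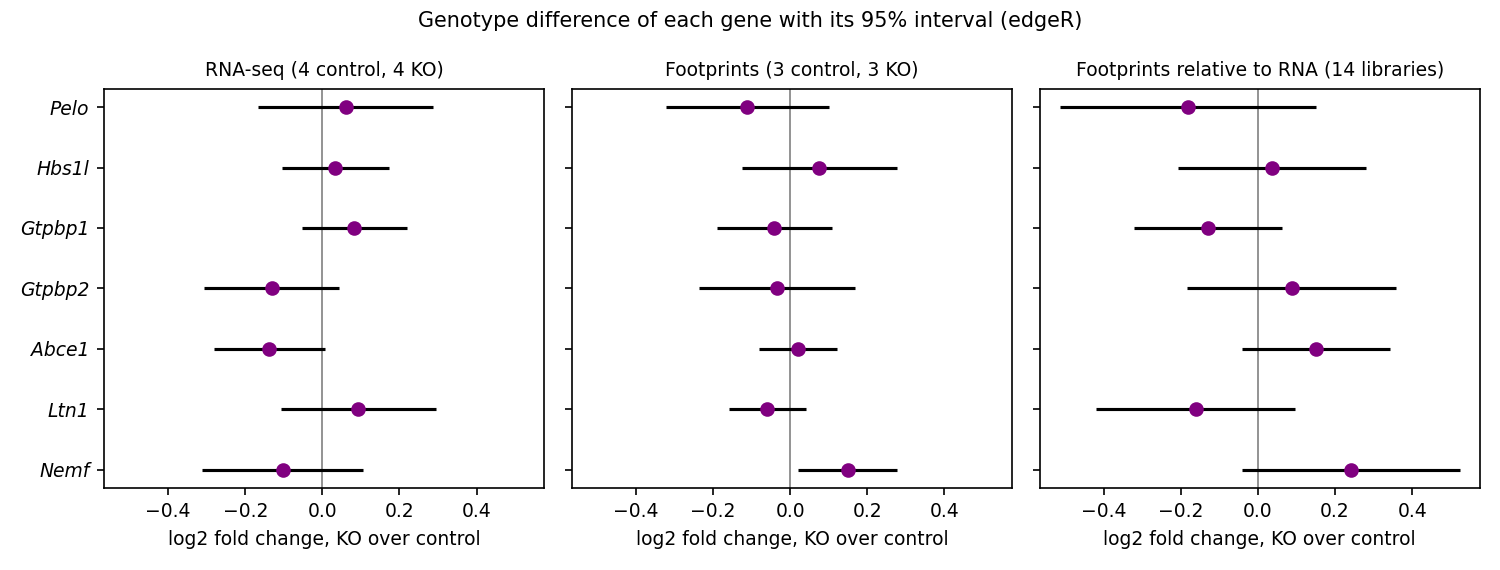
Log2 fold change of KO over control mice with its 95% interval for each of the 7 genes, from the edgeR fits of RNA, footprints and footprints relative to RNA. All intervals include 0 except that of Nemf in footprints, which runs from 0.02 to 0.28 before adjustment for the number of genes.

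Pelo encodes Pelota, the relative of the termination factor eRF1 that recognises the stalled ribosome. Its RNA was at 14.6, 12.9, 12.1 and 11.8 CPM in control mice 1, 3, 6 and 8 and at 13.7, 14.7, 12.7 and 12.4 CPM in KO mice 2, 4, 5 and 7. Its footprints were at 36.3, 31.7 and 32.6 CPM in control mice 1, 3 and 9 and at 31.5, 35.4 and 26.0 in KO mice 2, 4 and 10. Both assays overlapped between genotypes, and the lowest footprint value belonged to KO mouse 10. The log2 fold change was 0.06 (SE 0.11) in RNA and -0.11 (SE 0.11) in footprints, with edgeR adjusted p of 0.780 and 0.491. Leaving out 1 mouse moved the RNA value between 0.0084 (KO mouse 4) and 0.13 (control mouse 1), and the footprint value between -0.22 (KO mouse 4) and 0.0075 (KO mouse 10). Pelo had 109 to 169 RNA counts and 124 to 187 footprint counts per library, so counting error alone was 7.31% to 9.58%. The gene lies within Itga1 in RefSeq, and whether counting separated the strands is not given in the sources used here.

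Hbs1l encodes the GTPase that delivers Pelota, and a short isoform of the same gene serves the exosome as a counterpart of yeast Ski7. Gene counts do not separate the isoforms, and the long noncoding RNA genes 4930455C13Rik and Gm33803 overlap Hbs1l in RefSeq. RNA was at 78.4, 73.5, 80.2 and 67.5 CPM in control mice 1, 3, 6 and 8 and at 76.4, 73.8, 80.3 and 76.1 in KO mice 2, 4, 5 and 7. Footprints were at 30.2, 36.1 and 31.4 CPM in control mice 1, 3 and 9 and at 34.2, 32.7 and 36.7 in KO mice 2, 4 and 10. Every KO value lay within or just above the control range. The log2 fold change was 0.03 (SE 0.06) in RNA and 0.08 (SE 0.10) in footprints (edgeR adjusted p 0.806 and 0.643). Leaving out 1 mouse moved the footprint value between 0.03 (KO mouse 10) and 0.16 (control mouse 3), and the RNA value between -0.01 (control mouse 8) and 0.07 (control mouse 6).

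Because Pelota and Hbs1l act as a complex, their counts were also set against each other within each library. The log2 ratio of Pelo to Hbs1l was -2.55 ± 0.13 (SD, n = 4) in control and -2.52 ± 0.15 (SD, n = 4) in KO RNA. In footprints it was 0.04 ± 0.23 (SD, n = 3) and -0.17 ± 0.31 (SD, n = 3). That difference of -0.21 was -0.05 without KO mouse 10 and -0.35 without KO mouse 4. Genotypes overlapped in both assays, with exact two-sided permutation p of 0.857 and 0.5. Length does not cancel between 2 genes, so these ratios compare the genotypes and not the amounts of the 2 transcripts.

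Gtpbp1 and Gtpbp2 encode closely related GTPases. Gtpbp1 RNA was at 47.1, 50.1, 50.3 and 52.2 CPM in control mice 1, 3, 6 and 8 and at 52.2, 54.6, 51.1 and 53.6 in KO mice 2, 4, 5 and 7. Gtpbp2 RNA was at 55.1, 49.2, 55.5 and 46.4 CPM in the same control mice and at 44.7, 44.0, 52.6 and 47.2 in the same KO mice. For Gtpbp1 3 of the 4 control mice lay below all KO mice, while for Gtpbp2 KO mice 2 and 4 were the lowest, and the genotypes overlapped for both genes. The log2 fold change in RNA was 0.08 (SE 0.06) for Gtpbp1 and -0.13 (SE 0.08) for Gtpbp2, with edgeR adjusted p of 0.474 and 0.367.

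Footprints of Gtpbp1 were at 59.2, 65.3 and 62.6 CPM in control mice 1, 3 and 9 and at 61.0, 62.7 and 59.1 in KO mice 2, 4 and 10. Those of Gtpbp2 were at 35.9, 31.7 and 31.9 CPM in control and at 33.9, 30.9 and 31.8 in KO mice. Their log2 fold changes of -0.04 (SE 0.07) and -0.03 (SE 0.10) did not pass the edgeR test, and on library sizes without TMM both became positive (0.02 and 0.03). Leaving out 1 mouse moved Gtpbp1 between -0.07 (control mouse 1) and -0.0065 (control mouse 3), and Gtpbp2 between -0.07 (KO mouse 2) and 0.02 (control mouse 1). The log2 ratio of Gtpbp1 to Gtpbp2 in RNA was -0.04 ± 0.18 (SD, n = 4) in control and 0.17 ± 0.15 (SD, n = 4) in KO mice, a difference of 0.21 with an exact permutation p of 0.143 (0.286 adjusted over 6 ratios). In footprints the difference was 0.01. Over the 14 libraries, each centred within its assay, log2 CPM of this pair had a Pearson r of -0.74, the lowest of the 21 pairs of members. That value describes libraries that share depth and preparation.

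Abce1 encodes the iron-sulfur ATPase that splits ribosomes after both rescue and normal termination. RNA was at 163, 181, 167 and 166 CPM in control mice 1, 3, 6 and 8 and at 151, 145, 175 and 144 in KO mice 2, 4, 5 and 7. KO mice 2, 4 and 7 lay below all control mice, and KO mouse 5 lay above 3 of the 4. The log2 fold change was -0.14 (SE 0.07), with a 95% interval of -0.28 to 0.01 and a fold of 0.909, and it did not pass the edgeR test (adjusted p 0.234). Without KO mouse 5 it was -0.20 and passed (edgeR adjusted p 0.0314), in a fit that called 10.8% of all genes. Abce1 was then the 1 member called. KO mouse 5 also stood apart in choroid plexus markers, and the part of this in the Abce1 value was not tested.

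Footprints of Abce1 were at 141, 144 and 135 CPM in control mice 1, 3 and 9 and at 144, 135 and 146 in KO mice 2, 4 and 10. The groups overlapped in part, since KO mice 2 and 10 lay above all control mice and KO mouse 4 near the lowest, with a log2 fold change of 0.02 (SE 0.05) and a fold of 1.01 (95% interval 0.946 to 1.09). Leaving out 1 mouse moved it between -0.01 (control mouse 9) and 0.06 (KO mouse 4). This was among the best measured of the 7 genes, with 596 to 848 footprint counts and 1462 to 1746 RNA counts per library. The start of Abce1 overlaps that of Anapc10 in RefSeq.

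Ltn1 encodes listerin, the ubiquitin ligase of the pathway. RNA was at 148, 158, 132 and 110.5 CPM in control mice 1, 3, 6 and 8 and at 139.7, 141, 164 and 139.3 in KO mice 2, 4, 5 and 7. The control mice spanned almost the whole range, KO mouse 5 lay above all others, and the log2 fold change was 0.09 (SE 0.09, edgeR adjusted p 0.595). Leaving out control mouse 8 gave 0.0044, leaving out KO mouse 5 gave 0.04, and leaving out control mouse 3 gave 0.17. Footprints were at 146, 143 and 139.6 CPM in control mice 1, 3 and 9 and at 138.5, 134 and 138 in KO mice 2, 4 and 10. All KO footprint values lay below all control values, by a log2 fold change of -0.06 (SE 0.05) that did not pass the test (edgeR adjusted p 0.424). On library sizes without TMM it was -0.00. A small nucleolar RNA gene, Gm25896, lies within Ltn1 in RefSeq.

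Nemf encodes the factor that holds the split large subunit, recruits listerin and extends the stalled chain. Its footprints were at 81.4, 77.0 and 77.4 CPM in control mice 1, 3 and 9 and at 84.7, 86.7 and 89.2 in KO mice 2, 4 and 10. All KO values lay above all control values, and the KO mouse was the higher in each of the 3 title prefixes, which hold 1 mouse of each genotype. The log2 fold change was 0.15 (SE 0.07), a fold of 1.11 with a 95% interval of 1.01 to 1.21. The unadjusted p was 0.0242, and the edgeR adjusted p of 0.0819 missed the threshold. On library sizes without TMM the log2 fold change was 0.21 and Nemf passed (edgeR adjusted p 0.00981), where 28.4% of all genes did.

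Nemf RNA was at 95.4, 105, 77.4 and 71.1 CPM in control mice 1, 3, 6 and 8 and at 82.5, 80.9, 79.2 and 81.9 in KO mice 2, 4, 5 and 7. The KO mice lay close together, while control mice 1 and 3 lay above and mice 6 and 8 below all of them. The log2 fold change was -0.10 (SE 0.10, edgeR adjusted p 0.576). Leaving out control mouse 3 gave -0.0029, leaving out control mouse 1 gave -0.05, and leaving out control mouse 8 gave -0.19. The titles of mice 1 to 4 carry other prefixes than those of mice 5 to 8, and the labels do not say what a prefix marks, so the comparison was repeated within each set. In mice 1 to 4 Nemf RNA was lower in KO mice by a log2 fold change of -0.28 (edgeR adjusted p 0.00129), and in mice 5 to 8 the value was 0.12 (adjusted p 0.708).

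In mice 1 to 4, 3 of the 7 genes passed the RNA test, all lower in KO mice, where 24.1% of all genes passed. They were Nemf, Abce1 at -0.21 (edgeR adjusted p 0.00518) and Gtpbp2 at -0.23 (adjusted p 0.0339). In mice 5 to 8 these were at 0.12, -0.06 and -0.03, with 0 of 7 called at an adjusted p under 0.05 and 0.652% of all genes called. Ltn1 RNA stood at -0.11 in mice 1 to 4 and at 0.33 in mice 5 to 8 (edgeR adjusted p 0.111 and 0.218).

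The difference between the sets, tested after these values were seen as an interaction term in edgeR, was 0.41 (SE 0.11) for Nemf and 0.45 (SE 0.13) for Ltn1. Unadjusted p were 0.00185 and 0.00240, and adjusted p were 0.165 and 0.173. The test called 0 of 13507 genes (0%), with 1790 at an unadjusted p under 0.05. Each set holds 2 mice per genotype, and control mice 6 and 8 are the libraries in which both genes were lowest.

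**Figure D4:**
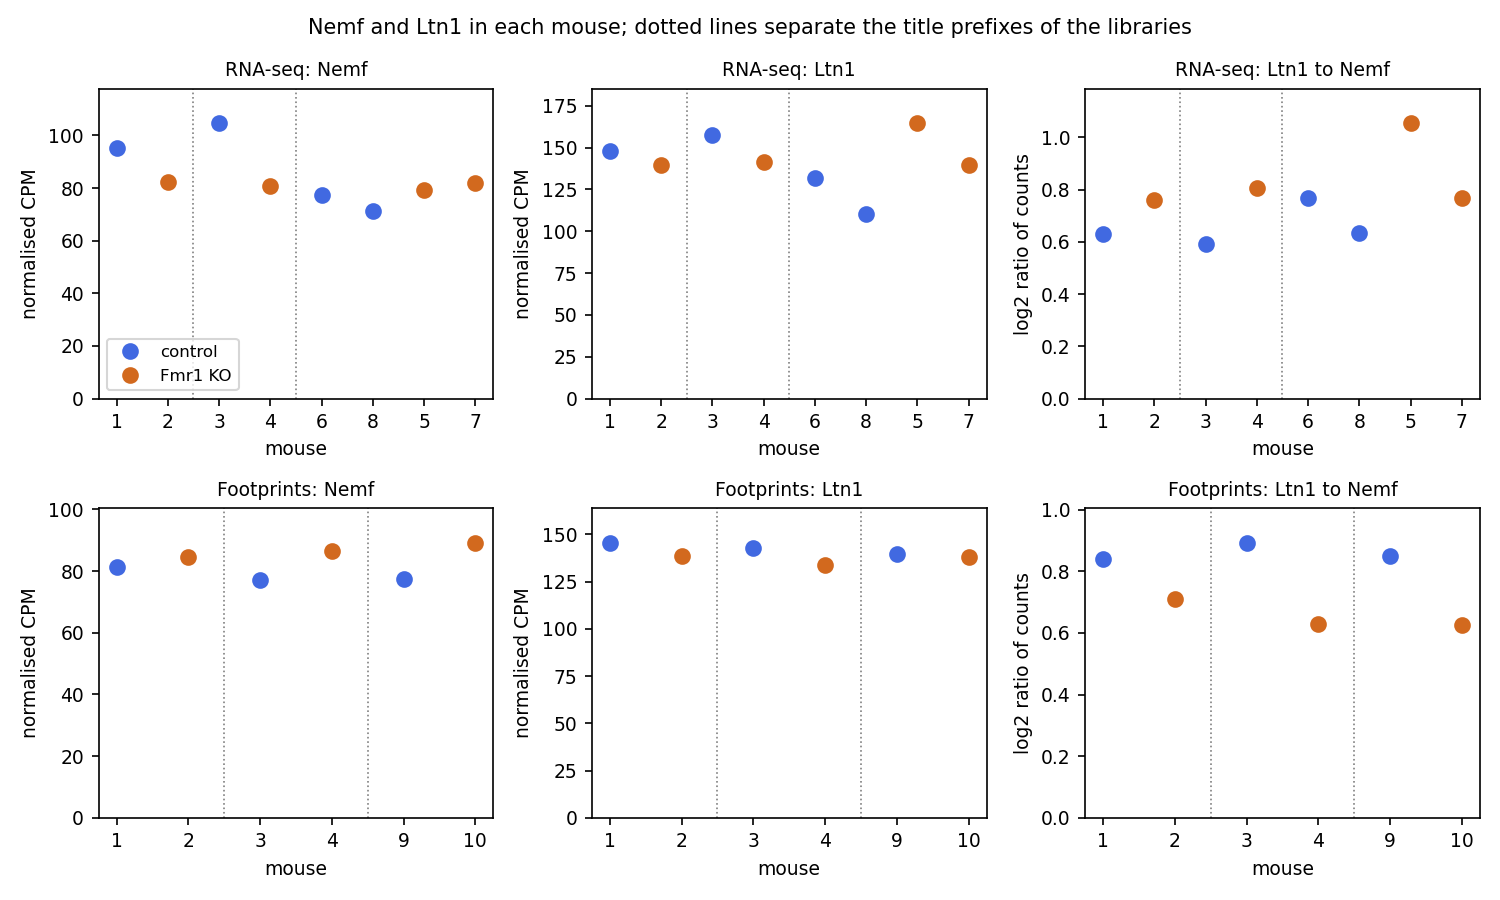
Normalised CPM of Nemf (left) and Ltn1 (middle) and the log2 ratio of their counts (right) in each mouse, for RNA-seq (upper row) and footprints (lower row), with dotted lines between title prefixes. Nemf RNA is 71.1 to 105 CPM in control and 79.2 to 82.5 CPM in KO mice, and the Ltn1 to Nemf ratio of footprints is lower in every KO mouse.

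Mice 1 to 4 were measured in both assays, so footprints could be set against RNA in the same animal. For Nemf the ratio was 0.854 and 0.736 in control mice 1 and 3 and 1.03 and 1.07 in KO mice 2 and 4. Over all 14 libraries the change in footprints relative to RNA was 0.24 on the log2 scale (SE 0.14), a fold of 1.18 with a 95% interval of 0.972 to 1.44 (edgeR adjusted p 0.308). With the mouse as a block, a fit that rests on mice 1 to 4, it was 0.40 and passed (edgeR adjusted p 0.00184), and Nemf was the 1 member called where 14.9% of all genes were. That fit left 2 residual degrees of freedom, so its p rests mostly on variance shared across genes. Without control mouse 3 the unblocked value was 0.13.

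The ratio of Abce1 was 0.863 and 0.795 in control mice 1 and 3 and 0.952 and 0.928 in KO mice 2 and 4, and that of Gtpbp2 was 0.651 and 0.644 against 0.759 and 0.703. Both were higher in the KO mice. Ratios were lower in KO mice for Pelo, at 2.49 and 2.47 against 2.31 and 2.40, and for Gtpbp1, at 1.26 and 1.30 against 1.17 and 1.15. Those of Hbs1l (0.386 and 0.492 against 0.447 and 0.443) and Ltn1 (0.986 and 0.906 against 0.992 and 0.948) overlapped. The genotypes thus stayed apart for 5 of the 7 genes, or 71.4%, against 53.6% of all genes in these 4 mice. Across the 14 libraries the log2 changes were -0.18 for Pelo, 0.04 for Hbs1l, -0.13 for Gtpbp1, 0.09 for Gtpbp2, 0.15 for Abce1 and -0.16 for Ltn1, with edgeR adjusted p from 0.354 to 0.888. Single mice moved several of these. Pelo stood at -0.06 when KO mouse 10 was left out, Gtpbp2 at 0.03 when KO mouse 2 was and at 0.15 when KO mouse 5 was. Ltn1 stood at -0.07 when control mouse 8 was left out and at -0.10 when KO mouse 5 was. Hbs1l ran from -0.03 to 0.13 over the mice left out.

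Listerin needs Nemf to bind the large subunit, and the ratio of their counts within a library involves no scaling between libraries. In footprints the log2 ratio of Ltn1 to Nemf was 0.84, 0.89 and 0.85 in control mice 1, 3 and 9 and 0.71, 0.63 and 0.63 in KO mice 2, 4 and 10. The groups did not overlap, with means of 0.86 ± 0.03 (SD, n = 3) and 0.66 ± 0.05 (SD, n = 3). The difference of -0.21 had an exact two-sided permutation p of 0.1, the smallest that 3 against 3 can give, and 0.286 adjusted over 6 ratios.

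In RNA the same ratio was 0.63, 0.59, 0.77 and 0.64 in control mice 1, 3, 6 and 8 and 0.76, 0.80, 1.05 and 0.77 in KO mice 2, 4, 5 and 7. Here the KO mice lay higher, with a single overlap between control mouse 6 and KO mice 2 and 7. The difference was 0.19 with an exact permutation p of 0.0857 (0.286 adjusted over 6 ratios). KO mouse 5 lay apart from the other KO mice, and without it the difference was 0.12. The signs in RNA and in footprints were opposite. The RNA ratio did not pass its test, and the footprint test could not pass, since 0.1 is its smallest possible p.

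The wider pathway was described with 36 other genes in 5 lists, of which 35 were found and tested. In RNA 1 of the 35 passed (2.86% against 7.41% of all genes). In footprints 12 did, 5 higher and 7 lower in KO mice, which is 34.3% against 25.5% of all genes. In footprints relative to RNA 3 passed (8.57% against 7.81%). The footprint calls were spread over all 5 lists, and the 3 lists with several calls held calls in both directions. Log2 fold changes in RNA had the sign of the footprints for Gigyf2 (-0.19), Ascc1 (0.10), Skiv2l (-0.26), Cnot4 (-0.04), Etf1 (0.08) and Mcts1 (0.02). They had the other sign for Gnb2l1 (-0.10), Gcn1l1 (0.03), Usp10 (0.10), Vcp (0.18), Wdr61 (-0.13) and Gspt2 (0.12). Relative to RNA, Vcp stood at -0.38 and Gigyf2 at -0.16 (edgeR adjusted p 0.0598 and 0.445). DESeq2 kept 10 of the 12 footprint calls, and 6 of the 12 held under every alternative tried (Gnb2l1, Gigyf2, Gcn1l1, Ascc1, Skiv2l and Mcts1). The smallest footprint p below rest on a small spread between 3 libraries per genotype (common coefficient of variation beyond counting noise 0.0211). In the edgeR fit over all 14 libraries, adjusted p were 0.0124 for Gigyf2, 0.0138 for Gnb2l1 and 0.00411 for Mcts1.

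Among the genes that sense collided ribosomes, 4 of 10 passed in footprints, 1 higher and 3 lower, with a list median of -0.15. Gnb2l1, which encodes the small-subunit protein Rack1, rose from 180 ± 6.10 to 213 ± 11.4 CPM (SD, n = 3 and 3; log2 fold change 0.24, SE 0.04, edgeR adjusted p 4.83e-06). Gigyf2, a translational repressor recruited to collisions, fell from 141 ± 5.58 to 112 ± 5.40 CPM (-0.34, SE 0.05, edgeR adjusted p 1.90e-07). Gcn1l1, whose product activates the kinase Gcn2 on collided ribosomes, fell from 123 ± 1.21 to 103 ± 7.84 CPM (-0.25, edgeR adjusted p 0.000320). Usp10, a deubiquitinase of small-subunit proteins, fell by 0.22 on the log2 scale (edgeR adjusted p 0.0298) and lost the call in 7 of 12 alternatives.

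Relative to RNA, Gnb2l1 rose by 0.34 (edgeR adjusted p 0.0110) and Gcn1l1 fell by 0.29 (adjusted p 0.0442). The call of Gcn1l1 was lost in 13 of 19 alternatives, the mouse block included (-0.23, edgeR adjusted p 0.058), with values from -0.34 to -0.22 and no change of sign. That of Gnb2l1 was lost in 1 of 19. The ubiquitin ligase Zfp598, which marks collided ribosomes, was at 21.8 ± 1.61 and 22.2 ± 0.295 footprint CPM in control and KO mice (edgeR adjusted p 0.904).

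In the ASC-1 complex, which pulls apart the leading collided ribosome, 1 of 4 genes passed. Footprints of Ascc1 rose from 24.6 ± 1.78 to 32.2 ± 1.67 CPM (SD, n = 3 and 3; log2 fold change 0.38, SE 0.11, edgeR adjusted p 0.00499). The helicase gene Ascc3 was at -0.10, Ascc2 at -0.22 and Trip4 at -0.12, none past the test.

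Among genes that clear the trapped chain after Ltn1 and Nemf, 1 of 8 passed in footprints. Vcp, the ATPase that extracts ubiquitinated chains, fell from 127 ± 6.86 to 111 ± 5.92 CPM (SD, n = 3 and 3; log2 fold change -0.20, SE 0.06, edgeR adjusted p 0.00429) and lost the call in 2 of 12 alternatives. Its cofactor genes Ufd1l and Nploc4 were at -0.01 and 0.02. Tcf25, a companion of Ltn1 and Nemf in the same complex, was at 0.04 and Ankzf1, which releases the chain from its tRNA, at -0.18, neither past the test.

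Of 7 genes for decay of the stalled mRNA, 3 passed in footprints. Skiv2l, the helicase of the SKI complex that feeds mRNA to the exosome, fell from 103 ± 9.69 to 86.4 ± 2.26 CPM (SD, n = 3 and 3; log2 fold change -0.24, SE 0.06, edgeR adjusted p 0.00172). It was also the 1 gene called in RNA, from 101 ± 4.72 to 84.5 ± 2.95 CPM (SD, n = 4 and 4; -0.26, edgeR adjusted p 0.0145), a call lost in 8 of 19 alternatives, mice 5 to 8 among them (-0.19, adjusted p 0.468). Relative to RNA it stood at 0.00. Cnot4, a ubiquitin ligase tied to mRNA deadenylation, fell by 0.27 on the log2 scale (edgeR adjusted p 0.00297, lost in 1 of 12 alternatives), and the SKI subunit gene Wdr61 rose by 0.22 (adjusted p 0.0475, lost in 7 of 12).

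Of 6 genes for termination and recycling, 3 passed in footprints. Mcts1, which works with Denr to recycle small subunits, rose from 72.6 ± 2.29 to 97.8 ± 3.05 CPM (SD, n = 3 and 3; log2 fold change 0.43, SE 0.06, edgeR adjusted p 3.65e-08), while Denr was at 0.04. Mcts1 also rose relative to RNA by 0.40 (edgeR adjusted p 0.0449), a call lost in 11 of 19 alternatives. Etf1, the gene of the termination factor eRF1, rose from 114 ± 3.49 to 138 ± 11.1 CPM (0.28, edgeR adjusted p 3.39e-05). Gspt2, the gene of an eRF3 paralog of Hbs1l, fell from 82.4 ± 2.71 to 67.6 ± 2.47 CPM (-0.29, edgeR adjusted p 0.000554), and its relative Gspt1 was at -0.06. Etf1 and Gspt2 each lost the call in 1 of 12 alternatives.

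**Figure D5:**
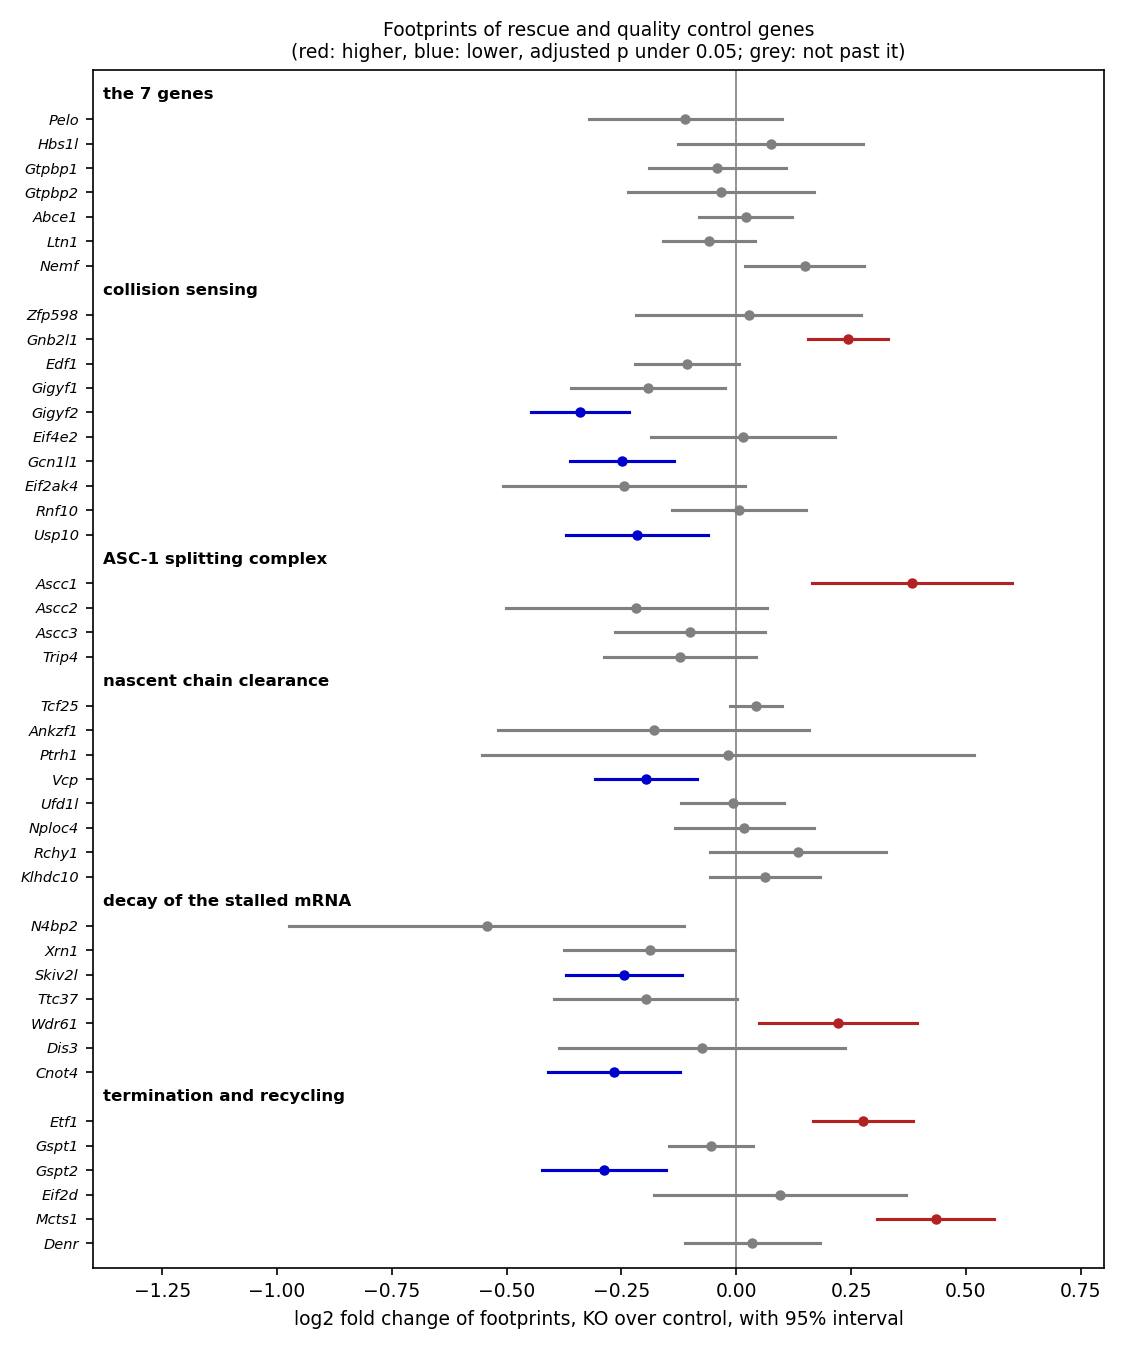
Log2 fold change of footprints, KO over control (3 mice each), with 95% intervals for the 7 genes and 35 other rescue, quality control and termination genes in 5 lists. Of the 35, 5 are higher (red) and 7 lower (blue) at an adjusted p under 0.05, and all 7 genes are grey.

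The genes whose log2 CPM followed each member most closely over the 14 libraries, centred within each assay, were Gspt1 for Ltn1 (Pearson r 0.96), Pgap1 for Abce1 (0.96) and Fxr1 for Nemf (0.93). Next came Kcnh4 for Pelo (0.86), Oard1 for Hbs1l (0.86), Caskin2 for Gtpbp1 (0.86) and Copg1 for Gtpbp2 (0.84). Each is the best of the genes tested in both assays, and the libraries share depth and preparation, so the values are descriptive. Genotype was left in, so a like difference between genotypes is part of the choice. Fxr1 encodes an autosomal relative of the Fmr1 product.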

How the data were processed

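The authors deposited 1 table of whole-number counts per gene, with no normalization, for 8 RNA and 6 footprint libraries. Per the submitters' processing notes, Bowtie2, STAR 2.5, featureCounts and Subread 1.4.6 and the builds mm9 and mm10 were used; roles, strand setting and the region counted are not given in the sources used here, so no coordinates are printed. Genotypes and mouse numbers came from the labels. Of each RNA library's pair of columns the one with no suffix entered the fits, because its genes are those with footprint values; 2849 genes without such values were left out. Counts were tested with edgeR 4.0.16 (R 4.3.3): TMM on full library sizes, filterByExpr with a minimum count of 10, quasi-likelihood F test, Benjamini-Hochberg adjustment over all genes, threshold 0.05. Footprints relative to RNA are the genotype by assay interaction over 14 libraries. Ratios of partner genes were compared by exact two-sided permutation. DESeq2 1.42.0 was an alternative. The code was tested on simulated data. The numbers pair mice 1 to 4 across assays, being the same animals per the labels; deviations of same-mouse libraries from their group means had correlations of -0.01 to 0.03. Overlapping genes came from RefSeq (GRCm38.p6). The members and the pathway lists were chosen with earlier results of these data known. Named genes were all members, pathway genes called in any comparison (at most 12), the closest gene of each member, and Fmr1; uncalled pathway genes named beside them were chosen after their values were seen.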

Additional observations from a re-analysis of the deposited data

Results flagged for a closer look

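Among 24 groups of 4 RNA values of the 7 genes, their sums and their ratios, 3 held a library far from the other 3, where chance gives about 1 in 20. All 3 were KO mouse 5, and all 3 contain its Ltn1 value, so they are not separate events to set against that rate. Its Ltn1 RNA was at 164.4 CPM against 139.3 to 141.3 in the other KO mice. Its log2 ratio of Ltn1 to Nemf was 1.053 against 0.76 to 0.80. The sum of the 7 genes was 615.7 CPM against 554.4 to 560.3. In the same library choroid plexus markers summed to 113.9 CPM against 4.18 to 7.41 in the other KO mice, endothelial markers to 58.8 against 97.6 to 102, and inhibitory neuron markers to 736 against 586 to 603. Excitatory neuron markers summed to 2926 CPM against 2631 to 2651, oligodendrocyte markers to 3492 against 3822 to 3868, hypothalamic genes to 12.8 against 16.7 to 18.7 and striatal markers to 149 against 163 to 167. Their part in these values was not tested. Without this mouse the Ltn1 log2 fold change in RNA was 0.04 in place of 0.09 (0.0044 without control mouse 8), and that of the Ltn1 to Nemf ratio was 0.12 in place of 0.19.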

How the results depend on the processing

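No alternative called more than 3 of the 7 genes: 3 in RNA of mice 1 to 4, 1 in RNA without mouse 5 (0 to 1 when any 1 mouse was left out), 1 in footprints on plain library sizes and 1 in footprints relative to RNA with the mouse as replicate block. That block changed no other member's call. Small differences changed sign in some settings. In mice 1 to 4 RNA of Hbs1l was at -0.010 and Ltn1 at -0.113, and in mice 5 to 8 Nemf was at 0.119. Plain sizes moved footprints of Gtpbp1 to 0.019 and Gtpbp2 to 0.026. The mouse block moved Hbs1l to -0.0036 and Ltn1 to 0.029 relative to RNA. When 1 mouse was left out, Hbs1l ran from -0.012 to 0.067 in RNA and from -0.033 to 0.133 relative to RNA. Footprints ran from -0.220 to 0.0075 for Pelo, -0.070 to 0.018 for Gtpbp2 and -0.011 to 0.056 for Abce1. The difference in log2 ratio ran from -0.043 to 0.070 for Pelo to Hbs1l in RNA and from -0.087 to 0.072 for Gtpbp1 to Gtpbp2 in footprints.

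Counts over all genes moved more; the cause was not tested. RNA calls (1001) were 1739 in a fit over all 14 libraries, 79 with KO mice 2, 4 and 7 summed, 36 with control mice 1 and 3 summed as well, 88 in mice 5 to 8 and 3273 in mice 1 to 4. Without 1 mouse they ran from 356 to 1763, and leaving out mouse 1, 2, 3, 4, 6, 7 or 8 moved them by over 1.5 times. Footprint calls (3102) were 1821 with DESeq2 and 1684 in the fit over 14 libraries. Calls relative to RNA (949) were 1812 with the mouse block, 543 and 579 with the sums, and 419 to 1289 without 1 mouse, with mice 2 and 4 moving them most. Depth limits Pelo most, at 109 to 187 counts per library.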
